A study of Mus musculus with 7 samples.

Results

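This account covers 37 genes of macrophages, complement and MHC class II antigen presentation in the adult mouse heart, out of 22839 genes tested. The members were taken from a list of gene names and found by the gene name that the array files give each probe. All 37 were on the array and all 37 were tested. Emr1, which encodes a surface receptor used to mark mouse macrophages, is listed there under its current name Adgre1. Where several probes of a gene were kept, the brightest on average stands for it.

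Messenger RNA was profiled in 7 heart samples of adult female mice, each on a one-colour Agilent array. Of these samples, 3 were labelled wild type and 4 double knockout. Wild type animals (Wild Type_181, Wild Type_183, Wild Type_189) are labelled as non-transgenic, and knockout animals (Mutant_175, Mutant_182, Mutant_187 and Mutant_188) as transgenic with Brg1 and Brm knocked out; both received tamoxifen. Brg1, encoded by Smarca4, and Brm, encoded by Smarca2, are the 2 ATPases that can drive a SWI/SNF chromatin remodelling complex. The design text states that tamoxifen deleted Brg1 through a Cre-ERT recombinase under a myosin heavy chain (MHC) promoter, which is active in cardiomyocytes, in animals already null for Brm. The sources used here do not say whether the wild type animals also lacked Brm, nor how old the animals were. The design text names more samples than the 7 analysed here. No label says outright that samples are separate animals, so the p-values reflect only the spread among these arrays, which may be technical. The labels call the cells cardiomyocytes, but the RNA came from a tissue kit with no isolation step described, and the genes below are mainly genes of other cells.

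Macrophages are the most abundant immune cells of the healthy heart. A long-lived resident population, marked in mice by genes such as Lyve1, Timd4, Folr2 and Cd163, clears debris, while monocytes recruited from blood through the receptor Ccr2 join after injury. Macrophages bind antibody-coated material through Fc receptors, make the complement starter C1q, and show peptides to T cells on MHC class II molecules. In complement, C1q binding leads through C4 to cleavage of C3, factor B amplifies that cleavage, and the released fragments act on the receptors C3ar1 and C5ar1.

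A level below is a probe's linear signal divided by its array's 75th percentile, and it may be compared across arrays but not between genes. A log2 fold change is knockout minus wild type, with its standard error (SE, n = 3 and 4) and a limma p-value adjusted by Benjamini-Hochberg over all 22839 genes; a gene was called, and is said to rise or fall, at an adjusted p under 0.05. Arrays had 58.1% to 63.6% of spots well above background. Smarca4, the deleted gene, fell by 1.87 on the log2 scale (SE 0.29, adjusted p = 0.0021), from levels of 32.8 to 34.7 in wild type to 5.87 to 14.9 in knockout. Smarca2, which encodes Brm, was not called: its levels were 1.82 to 2.04 in wild type and 1.89 to 2.21 in the samples labelled knockout, a difference of 0.08 on the log2 scale (SE 0.11, adjusted p = 0.59). With spike-in scaling Smarca2 was higher by 0.65 (adjusted p = 0.028). Whether either probe lies in a deleted part is not known, and a probe outside it checks nothing, so these values do not check the Brm label. All arrays were on 1 slide, with every wild type array in row 1 and every knockout array in row 2, so slide row and genotype cannot be told apart. The reference level also matters: scaled to 7 spike-in probes instead, log2 fold changes shifted up by 0.57 and their median over all genes went from -0.12 to 0.45. On that scale 27 members rose and 0 fell, where 37.6% of all genes rose and 7.43% fell. Directions are therefore relative to each array's 75th percentile.

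Most of the 37 genes were higher in knockout samples. At the threshold, 23 rose, 1 fell and 13 were not called, where 16.4% of all genes rose and 25.8% fell. Every list count below that uses all arrays and the main scaling is to be read beside these shares. The median log2 fold change was 1.11 for the members and -0.12 for all genes. The wild type and knockout arrays did not overlap for 23 members in the higher direction and 1 in the lower; over all genes these shares were 19.6% and 31.6%. The genes that rose were all 8 complement genes, all 4 phagocytic receptors, 4 of 5 Fc receptor genes, 4 of 11 macrophage and leukocyte identity genes and 3 of 5 resident macrophage genes. None of the 4 MHC class II genes was called. In whole-tissue RNA, fewer cells of a type and less RNA per cell cannot be told apart, and the same holds for more of either.

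**Figure D1:**
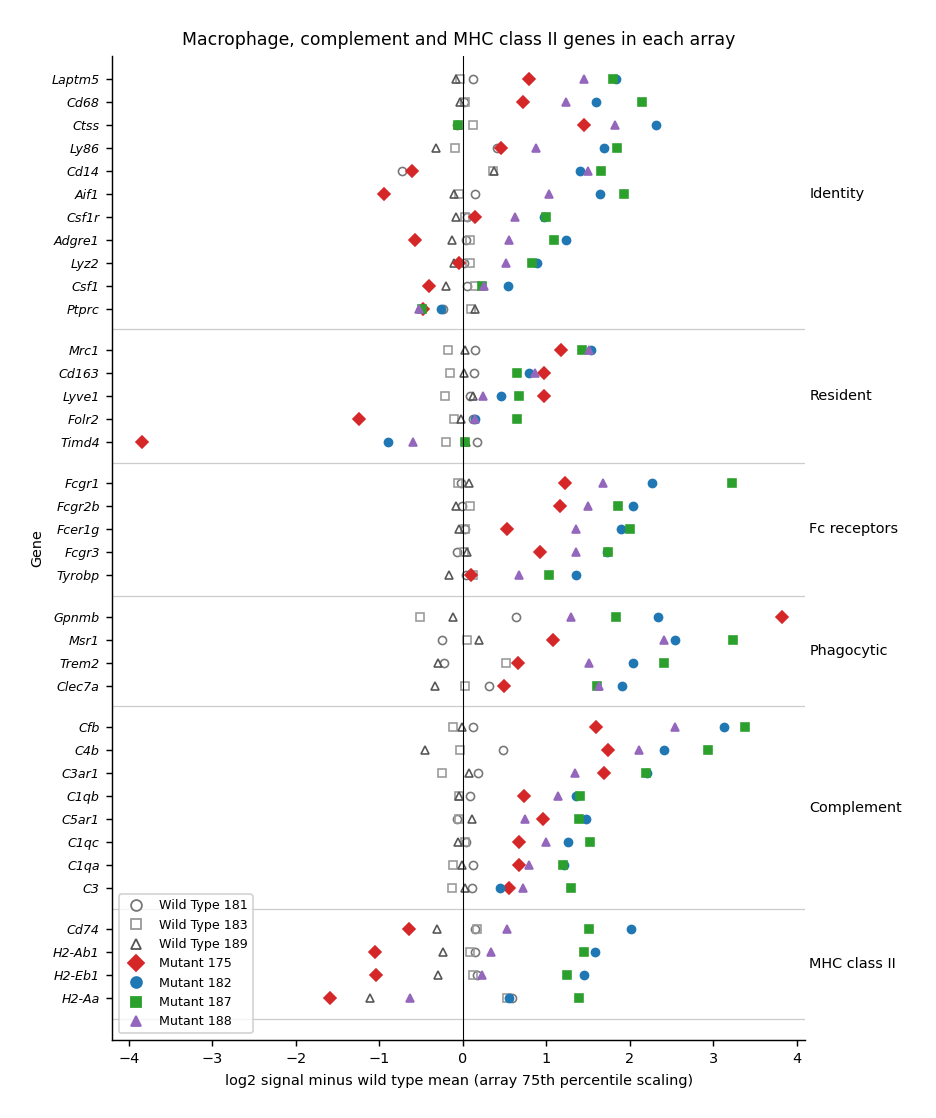
Each row is a gene and each point an array, placed by its log2 signal minus the wild type mean (horizontal axis, log2 units); open symbols are wild type and filled symbols knockout. Mutant_175 is the lowest of the 4 knockout arrays for 29 of 37 genes, and lies below the wild type range for all 4 MHC class II genes.

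One knockout array stood apart before any gene group is considered. Mutant_175 was the lowest of the knockout arrays for 29 of 37 members, and the highest for 3 (Cd163, Lyve1 and Gpnmb). It lay above the wild type range for 24 members, within it for 3 and below it for 10, whereas each of the other 3 knockout arrays lay above it for 34. Its median distance from the wild type mean over the members was 0.66 on the log2 scale, beside 1.54 in Mutant_182, 1.45 in Mutant_187 and 0.99 in Mutant_188. Without Mutant_175, 30 members rose and 1 fell, where 19.8% of all genes rose and 29.5% fell. Of the 23 that rose with all arrays, 22 rose again; Adgre1, Aif1, Cd14, Cd74, H2-Ab1, H2-Eb1, Lyz2 and Tyrobp were added, and Lyve1 was no longer called.

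Complement genes rose as a group, 8 of 8, with a median log2 fold change of 1.15. Every knockout array lay above every wild type array for each of the 8, Mutant_175 included. The 3 chains of C1q, which recognises bound antibody and dying cells and starts the classical pathway, moved to a like degree. Arrays are listed in numerical order from here on, Wild Type_181 first and Mutant_188 last within its group. C1qa had levels of 4.02, 3.38 and 3.67 on the wild type arrays and 5.88, 8.55, 8.44 and 6.40 on the knockout arrays. C1qb had 3.75, 3.43 and 3.44 in wild type and 5.90, 9.06, 9.39 and 7.78 in knockout, and C1qc had 8.0, 7.91 and 7.46 against 12.4, 18.6, 22.3 and 15.5. The knockout arrays were thus higher throughout, with Mutant_175 the closest to wild type in each case. Fitted as log2 fold changes, C1qa rose by 0.97 (SE 0.17, adjusted p = 0.0035), C1qb by 1.16 (SE 0.18, adjusted p = 0.0019) and C1qc by 1.11 (SE 0.20, adjusted p = 0.0039). The 3 probes lie close together on chromosome 4 of mouse build mm9, at 136452409 to 136452468 for C1qa, 136436578 to 136436637 for C1qb and 136445766 to 136445825 for C1qc.

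Among the 8 members the largest rises were those of Cfb and C4b. Cfb, factor B of the alternative pathway, had levels of 0.312, 0.266 and 0.287 in wild type and 0.870, 2.51, 2.99 and 1.68 in knockout, or 2.66 on the log2 scale (SE 0.40, adjusted p = 0.0017). C4b, the C4 of the classical and lectin pathways, had 4.02, 2.81 and 2.10 against 9.60, 15.3, 22.0 and 12.5, or 2.30 (SE 0.32, adjusted p = 0.0013). For both genes Mutant_187 was the highest array and the groups were well separated. The C4b value is uncertain in its source, since the near-identical gene C4a can bind the same probe. C4a itself, chosen after its values were seen, gave 2.15 (SE 0.33, adjusted p = 0.0020). C3, the central component, had levels of 45.7, 38.5 and 42.9 in wild type and 62.1, 57.8, 104 and 69.9 in knockout. Its rise of 0.76 (SE 0.21, adjusted p = 0.024) was the smallest of the 8, and the call was lost without Wild Type_181 (adjusted p = 0.052), Wild Type_183 (adjusted p = 0.087) or Wild Type_189 (adjusted p = 0.068). The probes of C4b, Cfb and C3 all lie on chromosome 17, at 34865367 to 34865426, 34993502 to 34993858 and 57343416 to 57343475.

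Both receptors for the released complement fragments rose. C3ar1, on macrophages and other myeloid cells, had levels of 0.0513, 0.0380 and 0.0478 in wild type and 0.146, 0.209, 0.207 and 0.115 in knockout (log2 fold change 1.86, SE 0.24, adjusted p = 0.00093). The size of this change in a dim gene was uncertain, at 0.88 to 2.43 over the alternatives given at the end. C5ar1 had 0.284, 0.289 and 0.322 against 0.581, 0.827, 0.779 and 0.50 (1.14, SE 0.20, adjusted p = 0.0032). In these receptors Mutant_188, not Mutant_175, was the lowest knockout array.

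**Figure D2:**
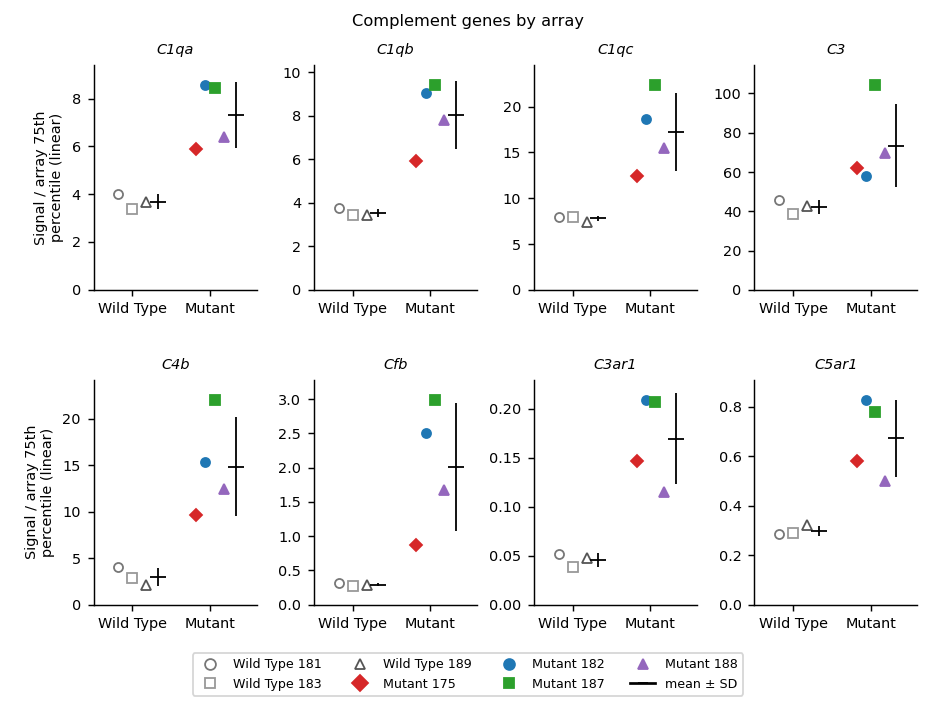
Level (linear signal over the array's 75th percentile, vertical axis from 0) of the 8 complement genes in each wild type and knockout array, with group means and SD. Every knockout array lies above every wild type array in all 8 panels, and Mutant_187 is the highest for C3 and C4b.

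Other complement genes moved both ways. Of 28 others tested, 7 rose and 10 fell, where 16.4% of all genes rose and 25.8% fell. Their median log2 fold change was -0.04. The 10 include Cd46, which was well above background on 3 wild type arrays and 0 knockout arrays. It was kept through the wild type arrays alone, so it had to differ and its call carries no weight. C2, the partner of C4 in the classical C3-cleaving enzyme, rose by 1.62 (SE 0.18, adjusted p = 0.00052), and Serping1, the C1 inhibitor, by 0.96 (SE 0.11, adjusted p = 0.00045). Vtn (vitronectin, which blocks the membrane attack complex) fell by 1.56 (SE 0.14, adjusted p = 0.00021) and C8g, a chain of the terminal component C8, by 1.48 (SE 0.11, adjusted p = 9.1e-05). Cfi, the protease factor I that inactivates C3b and C4b, was chosen after its values were seen; it had levels of 0.00907, 0.0750 and 0.0187 against 0.471, 0.425, 0.692 and 0.0834. Its fitted rise of 3.81 (SE 0.90, adjusted p = 0.012) is above that of each of the 8 members, but only 1 of 3 wild type arrays had it well above background, and with normexp background correction it was 2.01. Hc, C8a, C8b, Mbl1 and C4bp were not well above background on any array.

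Fc receptors and their signalling adaptors had 4 of 5 genes higher and a median log2 fold change of 1.44. Fcgr1, the high-affinity IgG receptor, had levels of 0.206, 0.202 and 0.222 in wild type and 0.489, 1.01, 1.96 and 0.670 in knockout, with all knockout arrays above the wild type range and Mutant_187 highest. Its log2 fold change was 2.10 (SE 0.43, adjusted p = 0.0069). The inhibitory receptor Fcgr2b had 0.839, 0.896 and 0.797 against 1.89, 3.47, 3.05 and 2.39 (1.64, SE 0.21, adjusted p = 0.00094). The activating receptor Fcgr3 had 2.86, 3.05 and 3.13 against 5.71, 9.95, 10.04 and 7.69 (1.43, SE 0.21, adjusted p = 0.0016). The activating and inhibitory receptors thus both rose, and the arrays fell in a like order, with Mutant_175 lowest and Mutant_188 next.

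The 2 adaptors carry ITAM motifs, through which these receptors signal. Fcer1g, the common Fc gamma chain, had 4.5, 4.49 and 4.27 in wild type and 6.39, 16.4, 17.7 and 11.3 in knockout (1.44, SE 0.34, adjusted p = 0.012). Tyrobp (DAP12), the adaptor of Trem2, had 3.71, 3.92 and 3.22 against 3.85, 9.21, 7.38 and 5.73, so Mutant_175 lay in the wild type range. Its log2 fold change of 0.79 was not called (SE 0.28, adjusted p = 0.058), and was 1.02 (adjusted p = 0.0054) without Mutant_175. Among 21 other genes of ITAM signalling, 10 rose, 1 fell and 10 were not called, with a median of 1.09. The gene that fell was Ptpn6, by 0.91 (SE 0.18, adjusted p = 0.0059). Syk, Lyn and Plcg2, chosen after their values were seen, were not called, at 0.13, -0.13 and -0.19 (adjusted p = 0.60, 0.60 and 0.44). Fcgr4, another activating IgG receptor, rose by 2.09 (SE 0.36, adjusted p = 0.0031), the adaptor Lcp2 (SLP-76) by 1.77 and the exchange factor Vav1 by 1.75.

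All 4 receptors for lipids, debris and fungal glucans rose, with a median log2 fold change of 1.99. Msr1, a scavenger receptor for modified lipoproteins, had levels of 0.0538, 0.0664 and 0.0734 in wild type and 0.136, 0.373, 0.603 and 0.340 in knockout (2.32, SE 0.45, adjusted p = 0.0057). Over the alternatives given at the end, the log2 fold change of this dim gene was 1.46 to 2.89. Trem2, a lipid-sensing receptor of macrophages, had 0.698, 1.17 and 0.665 against 1.29, 3.36, 4.34 and 2.32 (1.65, SE 0.42, adjusted p = 0.017). Trem2 in Mutant_175 lay just above Wild Type_183, and the call was lost without Wild Type_181 (adjusted p = 0.057) or Wild Type_189 (adjusted p = 0.062). Clec7a (dectin-1, a beta-glucan receptor) had 0.333, 0.273 and 0.212 against 0.378, 1.0, 0.815 and 0.831 (1.41, SE 0.34, adjusted p = 0.014); without Wild Type_189 its adjusted p was 0.056. Gpnmb, a glycoprotein of lipid-laden macrophages, had 0.0910, 0.0413 and 0.0539 against 0.831, 0.297, 0.210 and 0.144 (2.32, SE 0.58, adjusted p = 0.016). Gpnmb was the exception to the order of the arrays, as Mutant_175 was its highest array. Its adjusted p was 0.063 without Wild Type_183 and 0.053 without Wild Type_189. Over the alternatives the log2 fold change of Gpnmb, also dim, was 1.36 to 2.89.

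Of 18 other genes of scavenging and the phagolysosome, 10 rose and 1 fell, with a median of 0.51. Axl, a receptor for apoptotic cells, rose by 0.99 (SE 0.11, adjusted p = 0.00042), the lysosomal cholesterol carrier Npc2 by 0.92 and the lysosomal membrane protein Cd63 by 1.31. The gene that fell was Ctsd (cathepsin D, a lysosomal protease), by 1.38 (SE 0.11, adjusted p = 0.00011).

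General macrophage and leukocyte genes were less uniform, with 4 of 11 higher, 1 lower and a median log2 fold change of 0.92. Cd68, a lysosomal membrane protein of macrophages, had levels of 2.28, 2.29 and 2.21 in wild type and 3.73, 6.83, 10.004 and 5.31 in knockout (1.42, SE 0.30, adjusted p = 0.0082). Laptm5, a lysosomal protein of blood cells, had 0.549, 0.489 and 0.474 against 0.870, 1.79, 1.75 and 1.38 (1.47, SE 0.26, adjusted p = 0.0034). Ly86 (MD-1), a secreted partner of a Toll-like receptor relative, had 1.36, 0.962 and 0.822 against 1.41, 3.30, 3.69 and 1.89 (1.22, SE 0.36, adjusted p = 0.031). Mutant_175 was again the lowest knockout array for all 3 genes, and for Ly86 it barely passed Wild Type_181. The Ly86 call was lost without Wild Type_183 (adjusted p = 0.093), Wild Type_189 (adjusted p = 0.11), Mutant_182 (adjusted p = 0.074) or Mutant_187 (adjusted p = 0.059).

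Csf1r, the receptor that macrophages need to survive, had levels of 23.1, 22.6 and 21.1 in wild type and 24.7, 43.7, 44.6 and 34.5 in knockout. It rose by 0.69 (SE 0.22, adjusted p = 0.036), but no longer passed the threshold when any array but Mutant_175 was left out, with adjusted p of 0.082 without Wild Type_181, 0.093 without Wild Type_183, 0.11 without Wild Type_189, 0.085 without Mutant_182, 0.071 without Mutant_187 and 0.066 without Mutant_188. Those values are for the brightest Csf1r probe. A second, dimmer Csf1r probe had levels of 0.570, 0.655 and 0.537 in wild type and 1.0025, 1.0275, 1.027 and 1.0253 in knockout. It gave 0.80 with all arrays (SE 0.11, adjusted p over probes = 0.0014), and on it Mutant_175 was close to the other knockout arrays. The Csf1r ligand Csf1 was not called, with 2.97, 3.18 and 2.50 against 2.17, 4.17, 3.38 and 3.42 (0.16, SE 0.23, adjusted p = 0.61). The other 2 kept Csf1 probes, for another RefSeq transcript, gave 0.49 and 0.50, with adjusted p over 34481 probes of 0.024 and 0.022. Of 12 other genes of the CSF1 axis and myeloid transcription factors, 9 rose and 2 fell, with a median of 0.88. The 9 include Spi1, whose call carries no weight for the reason given below. Il34, the other ligand of Csf1r, rose by 0.97 (SE 0.13, adjusted p = 0.00094) and Csf2rb, the shared receptor chain for GM-CSF, by 2.47 (SE 0.45, adjusted p = 0.0040). The transcription factor genes Cebpb and Nr1h3 fell by 0.94 and 0.63, and were not called with spike-in scaling (adjusted p = 0.16 and 0.83). Spi1, which encodes the myeloid factor PU.1 and was chosen after its values were seen, had no wild type signal well above background and was at least 1.82-fold higher in knockout. Spi1 passed the filter on dim probes through 3 knockout arrays alone, so it had to differ, and no test is given for the bound. That bound takes, for each wild type array, the dimmest signal still well above its background in place of the Spi1 signal; it holds at the main settings, and with normexp the fitted log2 value was 0.47.

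Another 4 identity genes were not called with all arrays and rose without Mutant_175. The endotoxin co-receptor Cd14 had levels of 3.15, 6.70 and 6.77 in wild type and 3.43, 13.9, 16.5 and 14.7 in knockout. Its log2 fold change of 0.99 (SE 0.58, adjusted p = 0.21) became 1.52 (adjusted p = 0.0073) without that array. Adgre1 had 2.42, 2.49 and 2.16 against 1.58, 5.57, 5.02 and 3.45, and Aif1 (IBA1), a cytoskeletal protein of macrophages, had 1.89, 1.66 and 1.59 against 0.886, 5.33, 6.52 and 3.49. In both, Mutant_175 was below every wild type array while the other knockout arrays were above. Adgre1 went from 0.58 (SE 0.41, adjusted p = 0.29) to 0.96 (adjusted p = 0.0072) and Aif1 from 0.92 (SE 0.64, adjusted p = 0.28) to 1.54 (adjusted p = 0.0024). Lyz2 (lysozyme M) had 71.4, 74.9 and 65.8 against 68.7, 131, 126 and 101. It went from 0.55 (SE 0.23, adjusted p = 0.090) to 0.75 (adjusted p = 0.0045), and a second Lyz2 probe gave 0.88 with all arrays (adjusted p over probes = 0.020).

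Ctss (cathepsin S, the protease that trims the class II invariant chain) was set by another array. Its levels were 7.34, 8.37 and 7.41 in wild type and 21.1, 38.4, 7.41 and 27.2 in knockout, so that Mutant_187 lay in the wild type range and the others far above it. The log2 fold change was 1.38 (SE 0.51, adjusted p = 0.061), and 1.86 (adjusted p = 0.0015) without Mutant_187. On that array the local background of the Ctss spot was flagged as uneven and as an outlier, with a pixel SD of 66.4 beside 9.36 to 13.9 on the other arrays. A background flag was set for 10.3% of spots on Mutant_187 and 4.20% to 7.90% on the others. The part of the flagged background in this value was not tested.

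Ptprc (CD45, the tyrosine phosphatase of all nucleated blood cells) was the 1 member that fell, and its probes disagreed. The brightest probe, which carries an Ensembl transcript accession, had levels of 2.34, 2.95 and 3.05 in wild type and 1.99, 2.31, 1.97 and 1.92 in knockout (-0.44, SE 0.14, adjusted p = 0.036). The upstream of 2 probes with the RefSeq accession of Ptprc had 0.0564, 0.0453 and 0.0569 against 0.0571, 0.263, 0.168 and 0.146, or 1.40 on the log2 scale (SE 0.46, adjusted p over probes = 0.045). The downstream RefSeq probe had 0.563, 0.443 and 0.439 against 0.501, 1.88, 1.64 and 1.14, or 1.27 (SE 0.43, adjusted p over probes = 0.049). On the RefSeq probes Mutant_175 stayed at the wild type level and the other knockout arrays were above it, the order seen in most members. A further Ensembl-transcript probe gave 0.45 (adjusted p over probes = 0.14). The fall on the brightest probe was lost without Wild Type_183 (adjusted p = 0.13), Wild Type_189 (adjusted p = 0.14), Mutant_187 (adjusted p = 0.063) or Mutant_188 (adjusted p = 0.081). Scaled to spike-in RNA it was 0.13 (adjusted p = 0.63), so no direction is given for Ptprc as a gene. The sequences of the brightest and the upstream RefSeq probe are shown because the direction of Ptprc turns on which is read. They lie on the minus strand of mm9 at chr1:140020575-140020634 and chr1:140010285-140010344, and share the gene name but not the sequence:
Ptprc brightest probe: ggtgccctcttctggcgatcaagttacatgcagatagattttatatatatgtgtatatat
Ptprc upstream RefSeq probe: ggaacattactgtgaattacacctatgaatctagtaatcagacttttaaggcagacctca

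**Figure D3:**
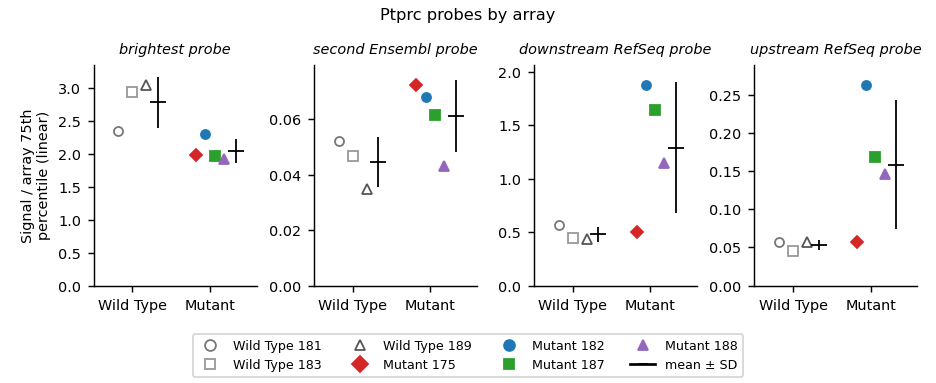
Level (linear signal over the array's 75th percentile, vertical axis from 0) on the 4 kept Ptprc probes in each array, with group means and SD. The brightest probe is lower in all 4 knockout arrays, while on both RefSeq probes Mutant_182, Mutant_187 and Mutant_188 are above wild type and Mutant_175 is level with it.

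Across the other members, probe choice mattered less. Of 57 kept probes for the 37 genes, 20 were not the one chosen, from 14 genes, and 17 of these had the sign of the chosen probe; the other 3 were those of Ptprc.

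Resident macrophage genes rose for Mrc1, Cd163 and Lyve1 and were not called for Timd4 and Folr2, with a median log2 fold change of 0.58. Mrc1, the mannose receptor CD206, had levels of 3.09, 2.47 and 2.83 in wild type and 6.27, 8.08, 7.47 and 7.92 in knockout (1.41, SE 0.14, adjusted p = 0.00029), the smallest adjusted p of the 37 genes. Cd163, the haemoglobin scavenger receptor, had 3.06, 2.50 and 2.82 against 5.48, 4.84, 4.35 and 5.06 (0.82, SE 0.13, adjusted p = 0.0022). For these 2 genes all knockout arrays, Mutant_175 included, were clearly above wild type. Lyve1, a hyaluronan receptor also found on lymphatic vessels, had 1.88, 1.53 and 1.92 against 3.47, 2.42, 2.81 and 2.08 (0.58, SE 0.19, adjusted p = 0.043). Its call was lost when any array but Mutant_188 was left out, with adjusted p from 0.0503 without Mutant_175 through 0.066 without Mutant_182, 0.082 without Mutant_187 or Wild Type_189 and 0.085 without Wild Type_181 to 0.15 without Wild Type_183. Timd4 (TIM-4, a receptor for dying cells) had 0.150, 0.116 and 0.138 against 0.00931, 0.0718, 0.137 and 0.0884. Its fitted value was -1.33 (SE 0.84, adjusted p = 0.24), and it was not well above background in Mutant_175; without that array it was -0.49 (adjusted p = 0.15). Folr2 (folate receptor beta) had 2.83, 2.41 and 2.57 against 1.10, 2.87, 4.07 and 2.87 (-0.08, SE 0.41, adjusted p = 0.90), with Mutant_175 below and the others above the wild type range; without Mutant_175 it was 0.31 (adjusted p = 0.17).

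Other genes of resident macrophages also moved both ways, with 5 of 18 higher, 3 lower and a median of 0.48. Of all genes, 16.4% rose and 25.8% fell. Vsig4, a complement receptor of tissue macrophages, rose by 2.73 (SE 0.25, adjusted p = 0.00021), from levels of 0.0463 to 0.0570 to levels of 0.249 to 0.528. F13a1, the coagulation factor XIII A chain, rose by 1.08, the lectin Clec10a by 0.99 and the transcription factor Maf by 0.61. The 3 that fell, chosen for naming after their values were seen, were Ccl24 (by 0.84), Slc40a1 (by 0.69) and Cbr2 (by 1.51), and none of them was called with spike-in scaling (adjusted p = 0.32, 0.71 and 0.14). Slc40a1 also lost its call without Wild Type_181 (adjusted p = 0.075) or Wild Type_183 (adjusted p = 0.077), and Cbr2 without either of these (adjusted p = 0.11 for each), Mutant_182 (adjusted p = 0.059) or Mutant_188 (adjusted p = 0.067).

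Genes of recruited monocytes and the macrophages they form had 11 of 17 higher, 0 lower and a median of 2.11. Lgals3 (galectin-3) had levels of 1.29, 0.844 and 0.833 in wild type and 7.05, 10.5, 10.2 and 6.62 in knockout. Hp (haptoglobin) had 0.729, 0.477 and 0.507 against 2.95, 4.81, 5.12 and 4.93, or 2.96 on the log2 scale (SE 0.24, adjusted p = 0.00014). For both, every knockout array was far above wild type. Thbs1 (thrombospondin 1) rose by 2.57 (SE 0.32, adjusted p = 0.00082) and the adhesion receptor Cd44 by 1.86 (SE 0.21, adjusted p = 0.00051). Ccr2, chosen after its values were seen, had levels of 0.0242, 0.0159 and 0.0257 against 0.153, 0.875, 0.605 and 0.346 and in wild type only 1 of 3 arrays had it well above background. Lgals3, Thbs1 and Cd44 are also made by cells other than monocytes. Over the recruited list, Mutant_175 had a median shift of 1.06 from the wild type mean and the remaining knockout arrays had 2.08 to 2.64. Over the 5 resident members, Mutant_175 had 0.97 and the remaining knockout arrays 0.24 to 0.65, but over the 18 other resident genes Mutant_175 was the lowest, at -0.11 beside 0.23 to 0.64. The difference between the resident and recruited lists was not tested.

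**Figure D4:**
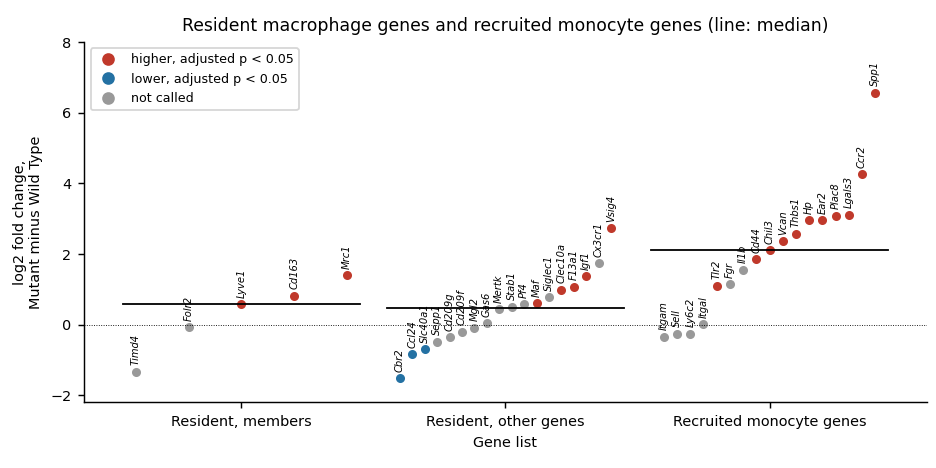
Log2 fold change (vertical axis, knockout minus wild type) of each gene in 3 lists: the resident macrophage members, other resident macrophage genes and recruited monocyte genes, coloured by call, with a line at the median. The medians are 0.58, 0.48 and 2.11, and genes that fell appear among the other resident genes.

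The 4 MHC class II genes did not pass the test, and their median log2 fold change was 0.53. Class II molecules pair an alpha and a beta chain, and their genes share a promoter module of X and Y boxes through which the coactivator Ciita acts. The RefSeq promoter table (GRCm38.p6) held 26 of the 37 members, with 30 promoters, and the 250 bases before the start are shown for the 2 class II genes in it because the module stands in both. The capitals mark the X box core, searched as CTNGCAACT, and the Y box, searched as CTGATTGG, on both strands; the 2 motifs do not overlap each other. H2-Aa lies at chr17:34287824-34288073 on the minus strand and H2-Eb1 at chr17:34305617-34305866 on the plus strand:
H2-Aa promoter: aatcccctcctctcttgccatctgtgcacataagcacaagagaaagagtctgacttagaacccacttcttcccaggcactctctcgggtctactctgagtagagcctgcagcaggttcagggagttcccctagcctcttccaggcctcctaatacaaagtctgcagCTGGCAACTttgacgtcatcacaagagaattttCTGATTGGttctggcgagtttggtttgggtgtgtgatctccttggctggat
H2-Eb1 promoter: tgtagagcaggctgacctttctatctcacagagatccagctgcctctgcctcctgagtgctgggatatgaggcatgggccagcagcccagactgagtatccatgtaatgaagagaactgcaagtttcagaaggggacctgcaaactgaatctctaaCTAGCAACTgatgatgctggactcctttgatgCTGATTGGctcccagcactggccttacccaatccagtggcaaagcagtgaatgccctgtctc
Between the X box core and the Y box lay 24 bases in H2-Aa and 23 in H2-Eb1. Of 32851 mouse promoters of the same length, 0.898% held the X box core, 4.1% the Y box and 0.0487% (16 promoters) both, and H2-Aa and H2-Eb1 were the only members with either. These are matches of letters, not measured binding. The core GAGGAA of PU.1 sites, searched likewise, was in 14 of the 30 member promoters and in 28.3% of all promoters.

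In levels, the class II genes split the knockout arrays. H2-Ab1, a beta chain, had 15.5, 14.9 and 11.8 in wild type and 6.72, 42.0, 38.2 and 17.7 in knockout (0.58, SE 0.61, adjusted p = 0.47). H2-Eb1, the other beta chain, had 20.3, 19.8 and 14.7 against 8.80, 49.4, 42.8 and 21.1 (0.47, SE 0.57, adjusted p = 0.54). Mutant_182 and Mutant_187 were far above wild type, Mutant_188 just above it and Mutant_175 below it in both. Cd74, the invariant chain that guards the class II groove, had 5.36, 5.44 and 3.90 against 3.1, 19.7, 13.8 and 6.98 (0.85, SE 0.59, adjusted p = 0.28). H2-Aa, an alpha chain, had 1.15, 1.10 and 0.353 against 0.254, 1.12, 2.0 and 0.492 (-0.07, SE 0.75, adjusted p = 0.95), with Wild Type_189 far below the other wild type arrays. Over the 4 genes the median shift from the wild type mean was -1.05 in Mutant_175, 1.52 in Mutant_182, 1.42 in Mutant_187 and 0.28 in Mutant_188. Without Mutant_175, 3 of 4 rose: H2-Ab1 by 1.13 (adjusted p = 0.032), H2-Eb1 by 0.97 (adjusted p = 0.049) and Cd74 by 1.35 (adjusted p = 0.025), with H2-Aa at 0.44 (adjusted p = 0.60). The probes of H2-Ab1, H2-Aa and H2-Eb1 lie together on chromosome 17 of mm9, at 34406305 to 34406363, 34421285 to 34421344 and 34453075 to 34453134.

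**Figure D5:**
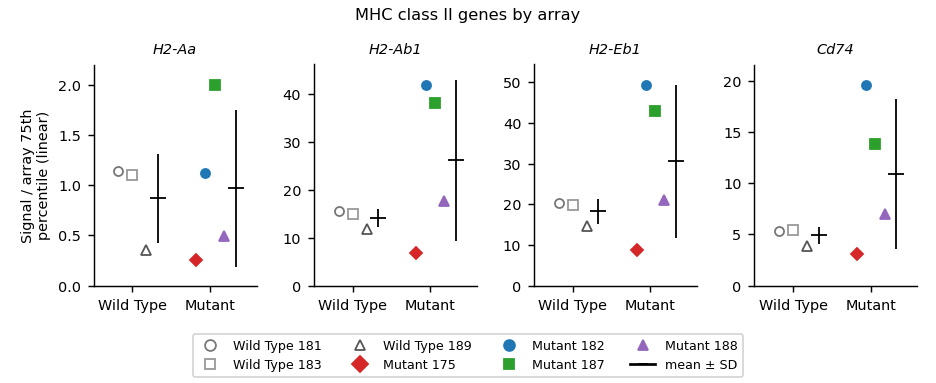
Level (linear signal over the array's 75th percentile, vertical axis from 0) of the 4 MHC class II genes in each array, with group means and SD. Mutant_175 is below every wild type array in each panel, and Mutant_182 and Mutant_187 are above every wild type array except for H2-Aa in Mutant_182.

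Other genes of class II antigen presentation had 4 of 17 higher, 2 lower and a median of 0.43, where 16.4% of all genes rose and 25.8% fell. H2-DMa, a chain of the peptide-exchange factor, rose by 1.04 (SE 0.25, adjusted p = 0.013), with an adjusted p of 0.055 without Wild Type_189. H2-DMb1, for another chain of that factor and chosen after its values were seen, was not called (-0.06, SE 1.34, adjusted p = 0.98). Its levels scattered widely, at 0.477, 0.480 and 0.0438 against 0.0449, 0.220, 1.71 and 0.109. The costimulator Cd86 rose by 1.04 (adjusted p = 0.018), with an adjusted p of 0.063 without Wild Type_181 and 0.060 without Wild Type_183. Of the 3 subunits of the complex that binds the X box, Rfxap rose by 0.46 (adjusted p = 0.016; 0.054 without Wild Type_181 and 0.072 without Wild Type_183), while Rfxank fell by 1.72 (SE 0.34, adjusted p = 0.0058), with levels of 3.59, 3.06 and 3.97 against 1.08, 0.661, 1.96 and 0.939. Rfx5, the third subunit, chosen after its values were seen, fell by 0.66 (SE 0.17, adjusted p = 0.019), with levels of 0.0748, 0.0697 and 0.0675 against 0.0341, 0.0425, 0.0508 and 0.0540, and 3 of 4 knockout arrays well above background. The Rfx5 call was lost without Wild Type_181 (adjusted p = 0.068), Wild Type_183 (adjusted p = 0.060) or Wild Type_189 (adjusted p = 0.053) and with spike-in scaling (-0.09, adjusted p = 0.74). Ciita, chosen after its values were seen, had 0.176, 0.119 and 0.0896 against 0.163, 0.480, 0.371 and 0.200 (1.16, SE 0.41, adjusted p = 0.057), and rose by 1.41 (adjusted p = 0.022) without Mutant_175. Mutant_175 was within the wild type range for Ciita and the other knockout arrays were above it.

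Markers of other cell types moved in the same samples, where 16.4% of all genes rose and 25.8% fell. Of 10 cardiomyocyte markers, 0 rose and 9 fell, with a median log2 fold change of -1.02 and summed levels of 5640 to 6100 in wild type and 2416 to 3211 in knockout. Of 8 fibroblast markers 6 rose and 0 fell, with a median of 0.94 and summed levels of 282 to 307 against 451 to 584. Of 8 endothelial markers 0 rose and 2 fell (Tie1 and Tek, whose direction turned with spike-in scaling), with summed levels of 108 to 114 against 77.2 to 115. Dendritic cell markers, some of which macrophages share, had 4 of 7 higher and 1 lower; their summed levels, 163 to 189.2 against 89.6 to 134, were mostly the signal of Siglech, which fell by 0.68. Itgax (CD11c) rose by 3.69 (SE 0.51, adjusted p = 0.0012) with 2 of 3 wild type arrays well above background, and Itgae (CD103) rose by 3.16 (SE 0.22, adjusted p = 8.0e-05). Clec9a was not well above background on any array.

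Lymphoid and granulocyte markers showed fewer calls, again beside 16.4% of all genes that rose and 25.8% that fell. Of 7 T and NK cell markers 2 rose and 0 fell, Cd3d by 0.87 and Cd3e by 1.11, with summed levels of 6.97 to 9.21 against 9.96 to 13.9 and Cd8a not well above background on any array. B cells also express class II genes; their markers had 0 of 4 higher and 1 lower, with summed levels of 1.26 to 1.79 against 0.785 to 1.39, and Cd79a and Blk not well above background on any array. Neutrophil markers had 1 of 10 higher and 1 lower, with summed levels of 48.7 to 52.4 against 38.7 to 54.6. These sums were mostly the signal of Csf3r, at 35.1 to 44.0 in wild type and 28.0 to 32.1 in knockout. Mast cell markers had 0 of 5 higher and 1 lower, with summed levels of 2.18 to 2.82 against 0.736 to 2.49, and Ms4a2 was not well above background on any array. Neutrophil markers had a median shift of -0.18 in Mutant_175 and 1.21 to 1.44 in the other knockout arrays, and T and NK cell markers had -0.27 and 0.88 to 1.32. Mutant_175 was thus the lowest knockout array by these medians, and by that of the B cell markers (-0.27). By summed level, however, it was the highest array for T and NK cell markers, at 13.9. That sum holds Cd3e at 5.57 in Mutant_175 beside 2.10 to 2.44 in the other knockout arrays. Cd3d was lowest of the knockout arrays in Mutant_175, at 0.219. For mast cell markers the lowest median shift was in Mutant_188, at -1.74 beside -1.23 in Mutant_175. The part of these other cells in the values of the 37 genes was not tested.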

How the data were processed

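Total RNA was copied with a Low Input Quick Amp kit, which adds the dye Cy3, and hybridised to SurePrint G3 mouse arrays, per the labels' protocols. Spot intensity was extracted by the authors with Agilent Feature Extraction 10.7.3.1, and probes are placed on mm9, per the file headers. The deposited intensity used is the processed signal, background-corrected and linear; the flags for background, outlier and saturation come from the same files. The authors' deposited value table, used as an alternative, holds the same intensity: 99.6% of its values differed from the scanner's by at most 0.01 as log2. Its column medians (47.7, 45.9 and 50.8 for wild type; 65.5, 83.3, 80.9 and 61.1 for knockout) show that it was neither centred nor scaled.

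Each array held 59305 non-control spots for 56605 probes; 82 to 146 outlier spots were left out and 0 were saturated. Spots of a probe were averaged, and log2 signal minus the array's 75th percentile was taken. A probe was kept if 3 arrays or more had it well above background (34481 probes), with 1 probe per gene, the brightest on average. Dividing by a percentile removes differences in total messenger RNA, and fold changes near background are uncertain. Summed levels add linear values over the tested genes of a list, so the brightest probes weigh most in them.

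Tests used limma 3.58.1 (lmFit, eBayes) on all 7 arrays without covariates. R was version 4.3.3 and its data.table package 1.17.8. Figures used matplotlib 3.10.9 and tables pandas 2.3.3 in Python 3.11.15. A p-value over probes is from the same fit on all kept probes. Tested on simulated data (10 simulations, 22809 genes, noise as in the real arrays), the fit called 1.34% of genes given a log2 change of 0.5, 48.5% at 1 and 91.7% at 2, and 4.28% of calls fell on unchanged genes. The members and gene lists were chosen with earlier results of these data known. All members were named, with Smarca4 and up to 4 called genes of smallest p from each other list; not all of the latter are printed. The alternatives tried are given with their effect at the end.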

Additional observations from a re-analysis of the deposited data

Results flagged for a closer look

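Among the 4 knockout arrays, 1 of the 37 genes had an array far from the others; the 3 wild type arrays, too few for this rule, were not checked. Cd14 in Mutant_175 lay at 1.78 on the log2 scale, where the nearest knockout array lay at 3.79. The gap was 0.888 of the range of the 4 knockout arrays, above the 95% critical value of Dixon's test for 4 samples. All 37 genes were checked in the knockout group, and chance sets such a mark for about 1 in 20 groups. No other member had one in the knockout group, although Mutant_175 was the lowest array for 29 of 37.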

How the results depend on the processing

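Of the 24 members called, 16 were called under every alternative. Over all 37 members and their alternatives, 702 comparisons were made: 608 kept direction and side of the threshold, 36 lost the call, 41 gained it and 17 changed direction. Spike-in scaling called 8585 genes higher and 1696 lower, and 27 members higher. Of all calls, 38.8% were higher at the main setting, 45.0% after quantile normalization, 49.5% with a percentile over only those probes that every array detected and 83.5% with spike-in scaling. Members that fell numbered 0 under quantile normalization, that percentile, spike-in scaling, no filter on dim probes, averaging a gene's probes and RefSeq mRNA probes only (chosen after seeing the data). Without Mutant_175 and Mutant_187 together the 1 that fell was Timd4, at -0.75 (adjusted p = 0.016), not Ptprc. With array weights, 1 of 4 class II genes was called. Complement stayed at 8 of 8 except without a wild type array.

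Leaving out each array in turn gave 2635 to 4515 genes higher and 4066 to 6736 lower, 16 to 30 members higher and 0 to 1 lower, 7 to 8 complement, 2 to 3 resident and 0 to 3 class II members called, and 9 to 12 recruited monocyte genes. The last were 8 with the filter over all arrays, which tests fewer genes.

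Directions that changed were these. Ptprc was 0.13 with spike-in scaling, 0.67 as the mean over its probes and 1.27 with RefSeq mRNA probes. Folr2 was 0.0019 after quantile normalization, 0.038 with the percentile of detected probes, 0.49 with spike-in scaling, 0.021 with normexp, 0.10 with array weights, 0.31 without Mutant_175 and 0.14 without Mutant_175 and Mutant_187; it ranged from -0.32 to 0.31 when each array was left out. H2-Aa was 0.045 with that percentile, 0.50 with spike-in scaling and 0.14 with array weights, and -0.63 to 0.44 when each array was left out. Csf3r, Tie1 and Tek were 0.13, 0.031 and 0.18 with spike-in scaling, and Smarca2 was -0.046 as the mean over its probes. Apart from settings that leave out samples or exchange probes, the cause was not tested. With 3 and 4 arrays, changes near 0.5 are mostly missed. No paired analysis was possible because the groups share no replicate number.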
